A study of Mus musculus with 4 samples.

Results

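The proteasome genes are the rows of the deposited expression table whose mouse symbol begins with Psm, then a letter from a to g and a digit. The rule found 50 genes among 27179 rows, and none of them is a pseudogene. They comprise the subunits of the proteasome, its activators, its inhibitor and its assembly factors, together with 2 genes, Psmc3ip and Psme3ip1, that are named after a subunit or activator to which their protein binds. Of the 50 genes, 49 had a mean of at least 10 normalized read counts over the 4 libraries and were tested. The exception was Psmb11, the beta subunit specific to the thymus, which was listed at 0 in 3 libraries and at 0.994 in the other.

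The proteasome is the protease that degrades ubiquitin-tagged proteins. Its barrel, the 20S core particle, is built of alpha rings that form the gate and beta rings that carry the proteolytic sites, which lie in Psmb5, Psmb6 and Psmb7. Cells exposed to interferon gamma, and many leukocytes constitutively, make Psmb8, Psmb9 and Psmb10, which take the places of Psmb5, Psmb6 and Psmb7 in newly assembled particles. The resulting immunoproteasome cuts proteins into peptides that suit presentation by MHC class I molecules. The core is capped by the 19S regulatory particle, whose base unfolds substrates with a ring of ATPases and whose lid removes ubiquitin, or by ATP-independent activators. In the kidney, tubule cells rely on the proteasome for the turnover of transporters and signalling proteins.

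The data were mRNA sequencing of kidney medulla taken from mice of mixed C57BL/6 strain at postnatal day 14. The control group, labelled as wild type, had 2 libraries, and the group labelled Actr3 KO (Actr3-fl/fl*Cdh16-Cre) had 2, in which floxed Actr3 was combined with Cre under the promoter of Cdh16, a cadherin of tubule epithelium. The product of Actr3 is Arp3, part of the complex that starts branched actin filaments. The Cre acts only in cells that use the Cdh16 promoter, so the other cells of the medulla are expected to keep the gene, and no label says whether the controls carried the floxed allele or Cre. The labels give 2 animals of each genotype and name no batch.

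Libraries held 36482238 to 40784436 reads. Actr3 was not lower in the KO-labelled libraries, where it read 12587 and 12480 normalized counts against 8065 and 7275 (log2 difference 0.71, adjusted p = 0.000494 by limma). A whole-gene count does not show whether the floxed exons were removed, so it does not check the genotypes. The groups are therefore named by their labels, as WT-labelled or KO-labelled, and every direction below rests on those labels. Markers of the thick ascending limb, principal cells and intercalated cells, which occur in medulla and cortex alike, summed to between 17798 and 439087 normalized counts a list in the WT-labelled libraries. In the KO-labelled libraries 15 of these 18 markers were lower, as were all 8 endothelial markers, compared with 24.9% of all genes tested. Of the 18, 1 marker of the thick ascending limb was higher. Of 6 fibroblast and pericyte markers 3 were higher, compared with 26.3% of all genes tested. The part of these cell types in the differences of the proteasome genes was not tested.

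Proteasome genes were higher in the KO-labelled medulla, most of them by a small amount. Of the 49 tested, 29 were higher, none was lower and 20 did not pass the threshold (limma, adjusted p under 0.05), which is 59.2% higher against 26.3% of all 16253 genes tested. The same test called 24.9% of all genes lower and 51.2% changed in either direction. At an unadjusted p under 0.05 the count of lower proteasome genes was again 0, and edgeR and DESeq2 on recovered reads called 0 lower as well. Taken as KO-labelled minus WT-labelled values of log2(value + 1), the median difference was 0.30 for the proteasome genes and 0.003 for all tested genes. Only 2 of the 49, Psmb8 and Psmb9, differed by a log2 of at least 1, a size reached in either direction by 21.6% of all tested genes.

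Both KO-labelled libraries lay above both WT-labelled ones for 39 of the 49 genes, an arrangement found in 39.8% of all genes tested. The reverse held for 2 genes, Psmd12 and Psmd5, against 38.7% of all genes tested. Summed over the 50 genes, the level was 137408 and 142463 normalized counts in WT-labelled libraries and 176935 and 164396 in KO-labelled ones, which is 1.22-fold higher. In bulk tissue a change in the number of cells of a type and a change in RNA per cell cannot be told apart, and this holds for every difference given here.

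The count rests on small differences and on few libraries. It was 10 of 49 when no variance trend was fitted, a share no larger than the 21.1% of all tested genes called higher in that setting. The count also fell when any 1 library was left out, most without KO replicate 1, where the share was close to that of all tested genes. The median log2 difference of the proteasome genes was then between 0.25 and 0.36. The lower count stayed at 0 in each case. KO replicate 1 stood above KO replicate 2 for 46 of the 49 genes, compared with 53.1% of all tested genes, and WT replicate 1 stood above WT replicate 2 for 18 of them, compared with 48.7%. The genes called in each of the 15 alternative settings were 8 of the 29: Psma5, Psma7, Psmb10, Psmd2, Psmd4, Psmd7, Psmd14 and Psme2.

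**Figure D1:**
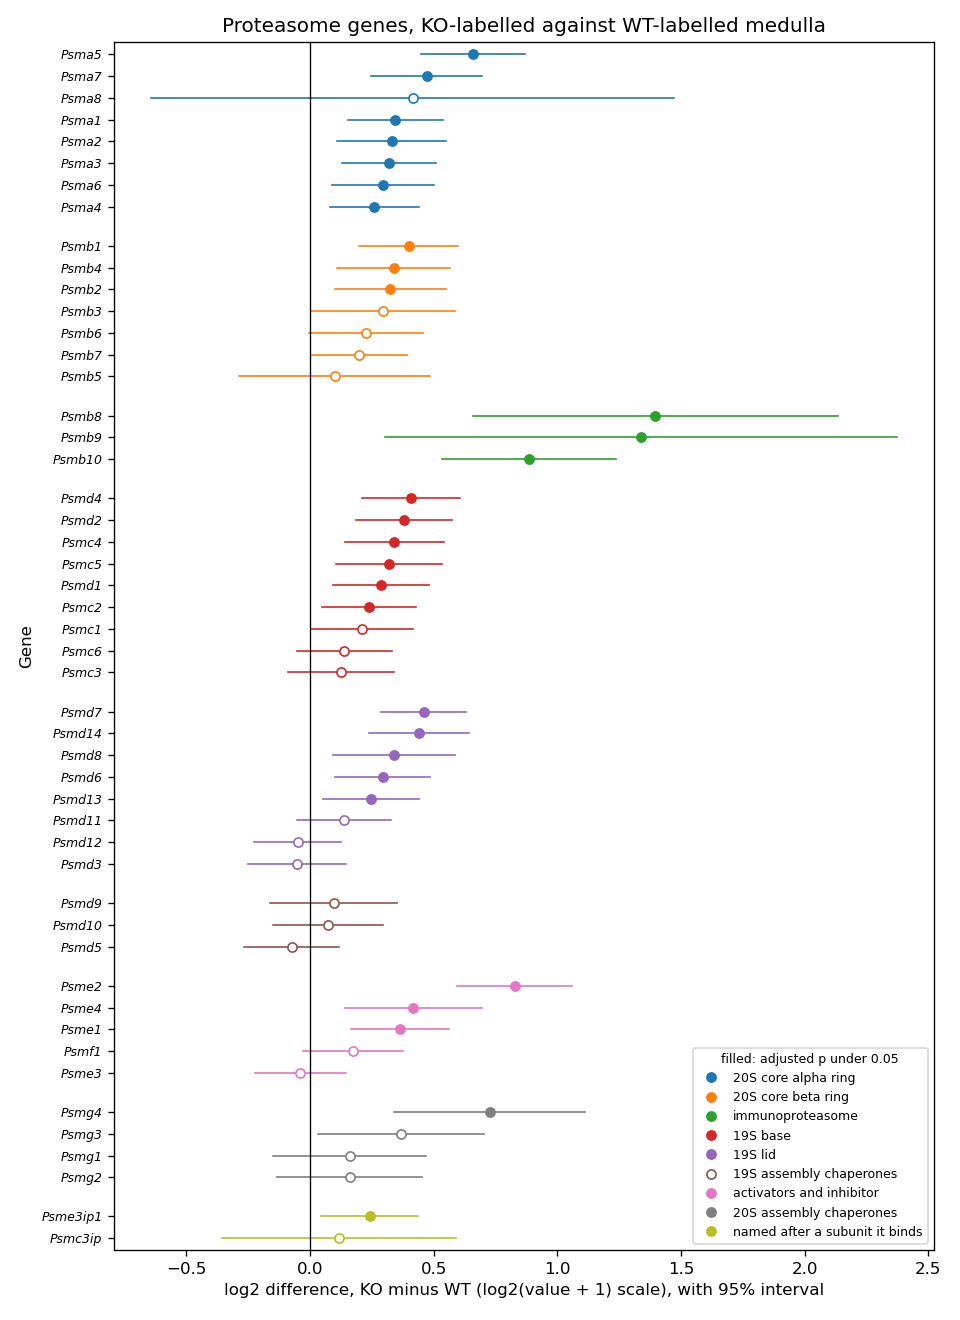
Each point is the log2 difference, KO-labelled minus WT-labelled, of 1 of 49 tested genes on the log2(value + 1) scale, with its 95% interval from limma; colours mark the groups of subunits and filled points have an adjusted p under 0.05. The 29 filled points all lie to the right of 0, and the immunoproteasome genes Psmb8, Psmb9 and Psmb10 lie furthest right, at 1.40, 1.34 and 0.89.

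The 3 immunoproteasome genes were the highest of the 49 by log2 difference in the main fit, and all 3 rose. This order did not hold without WT replicate 2. There Psmb10 was at 0.69 and Psmb9 at 0.59, below Psme2 at 0.78 and Psmg4 at 0.74. Psmb8, which replaces Psmb5 at the chymotrypsin-like site, read 799 and 376 normalized counts in WT-labelled against 1532 and 1362 in KO-labelled libraries. Both KO-labelled values lay above both WT-labelled ones, although WT replicate 1 stood well above WT replicate 2. Group means were 587 ± 299 and 1447 ± 120 (SD, n = 2), 2.46-fold apart, and the fitted log2 difference was 1.40 (SE 0.31, adjusted p = 0.00887 by limma). It was 0.85 without WT replicate 2 and 1.94 without WT replicate 1, and it missed the threshold when the variance trend was dropped or fitted robustly (adjusted p = 0.0596 and 0.0579). Psmb8 lies on chromosome 17 from 34198195 to 34201454 (GRCm38).

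Psmb9, which replaces Psmb6, was the least abundant of the 3, at 232 and 81.5 in WT-labelled against 372 and 329 in KO-labelled libraries. The spread within the WT-labelled pair was again wide. The log2 difference was 1.34 (SE 0.44, adjusted p = 0.0384 by limma), and this call was the least stable of the 3: it was held in 7 of 15 alternatives, with adjusted p between 0.00188 and 0.124. The log2 difference was 2.09 without WT replicate 1 and 0.59 without WT replicate 2 (adjusted p = 0.0643), and the call was also lost without either KO replicate (0.0895 and 0.0518). Psmb9 (chromosome 17, 34182030 to 34187330) stands head to head with Tap1, a subunit of the transporter that carries proteasomal peptides into the endoplasmic reticulum, with 226 bases between their starts in RefSeq. Tap1 read 993 and 455 against 1345 and 1221, with the same order of the 4 libraries as Psmb9. Psmb8, Psmb10 and Psme2 had this order too, so it is not particular to Psmb9 and Tap1.

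Psmb10, which replaces Psmb7 and is encoded outside the MHC region, on chromosome 8 from 105935728 to 105938392, read 997 and 764 against 1733 and 1502. The groups did not overlap, and the WT-labelled replicates were closer to each other than for Psmb8 or Psmb9. The log2 difference was 0.89 (SE 0.15, adjusted p = 0.0026 by limma), and it was called in all 15 alternatives, with log2 differences from 0.69 to 1.08.

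**Figure D2:**
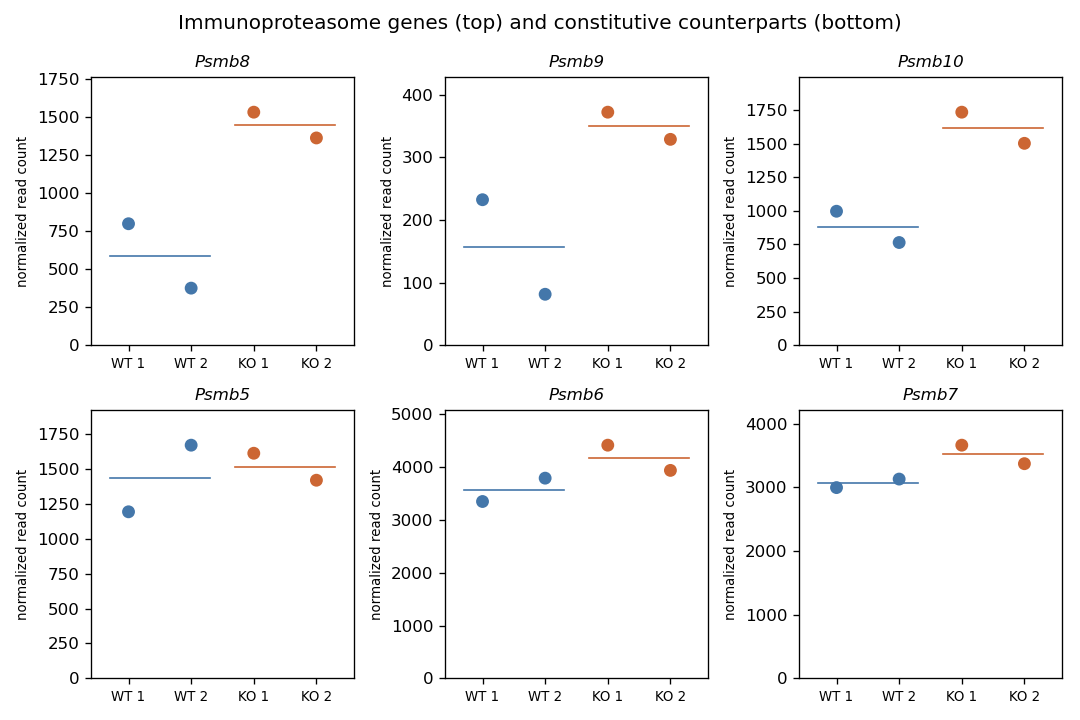
Normalized read counts (linear axes starting at 0) of the 3 immunoproteasome genes in the top row and of the constitutive subunits they replace in the bottom row, 1 point per library, with the mean of each group as a line. Psmb8, Psmb9 and Psmb10 are higher in both KO-labelled libraries, whereas the values of Psmb5 overlap between the groups.

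The constitutive catalytic subunits did not pass the threshold. Psmb5, the chymotrypsin-like subunit, read 1193 and 1670 in WT-labelled against 1612 and 1419 in KO-labelled libraries. These ranges overlapped, and the log2 difference of 0.10 had a 95% interval from -0.29 to 0.49 (adjusted p = 0.635 by limma). Psmb6, the caspase-like subunit, read 3350 and 3792 against 4417 and 3939, a log2 difference of 0.23 (95% interval -0.005 to 0.46, adjusted p = 0.0916). Psmb7, the trypsin-like subunit, read 2998 and 3132 against 3665 and 3374, a log2 difference of 0.20 (95% interval 0.003 to 0.39, adjusted p = 0.0822). Both KO-labelled values of Psmb6 and of Psmb7 lay above the WT-labelled ones, by small margins, so that a modest rise is within these intervals.

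The ratio of each immunoproteasome gene to its counterpart does not depend on how libraries are scaled. Per kilobase of exon, Psmb8 stood at 37.0% and 12.4% of Psmb5 in the WT-labelled libraries and at 52.5% and 53.0% in the KO-labelled ones. Psmb9 stood at 4.10% and 1.27% of Psmb6 against 4.97% and 4.93%. Psmb10 stood at 29.4% and 21.6% of Psmb7 against 41.8% and 39.4%. For all 3 pairs the KO-labelled libraries lay above the WT-labelled ones and were close to each other, while WT replicate 2 was the lowest of the 4.

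The log2 ratios differed by 1.30, 1.12 and 0.69 in this order. The SDs between WT-labelled libraries were 1.11, 1.20 and 0.32 and those between KO-labelled libraries 0.011, 0.0096 and 0.062 (n = 2 each). For Psmb8 and Psmb9 the difference was thus of the size of the spread between the WT-labelled libraries, and for Psmb10 it was larger. A two-sided exact permutation test over the libraries gave p = 0.333 for each pair, which is the smallest p that 2 against 2 allow, and adjustment over the 3 pairs leaves it there. Without WT replicate 2 the differences were 0.51, 0.27 and 0.46, and without WT replicate 1 they were 2.09, 1.96 and 0.91.

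**Figure D3:**
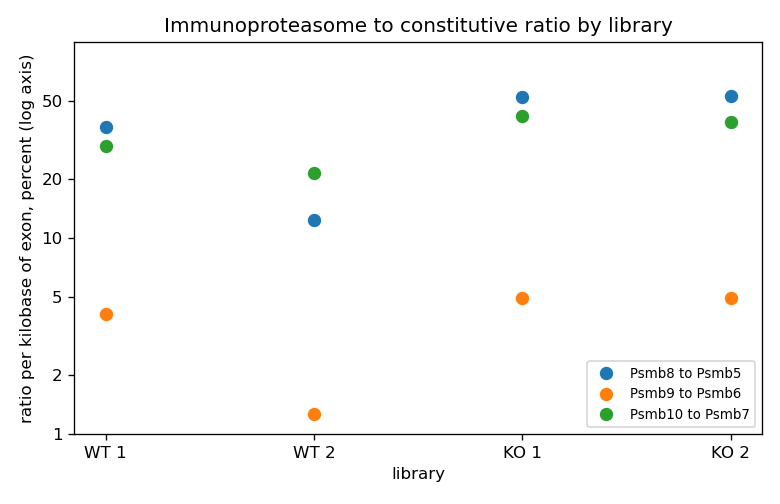
Ratio of each immunoproteasome gene to the constitutive subunit it replaces, per kilobase of exon and in percent (log axis), in each of the 4 libraries. In the KO-labelled libraries Psmb8 reaches 52.5% and 53.0% of Psmb5, and WT replicate 2 has the lowest ratio of all 3 pairs.

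Lists of genes that work with the immunoproteasome were read beside it. Of 12 genes of MHC class I peptide loading 9 were higher and none lower, where 26.3% of all tested genes were higher and 24.9% lower, with a median log2 difference of 0.58. Among them Tapbpl, a peptide editor related to tapasin, read 697 and 545 against 1406 and 1270, and Tapbp, tapasin itself, 6115 and 5809 against 10537 and 8978, with log2 differences of 1.12 and 0.71. Of 9 tested genes of interferon gamma signalling 7 were higher and none lower, against the same shares of all tested genes. Ifngr1, the ligand-binding receptor chain, rose by a log2 difference of 1.67, and the receptor kinase gene Jak2 by 1.02.

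WT replicate 1 stood above WT replicate 2 for 10 of the 12 MHC class I genes and for all 9 tested interferon gamma genes. The same held for the 3 immunoproteasome genes, compared with 48.7% of all tested genes. The genes given here as examples were chosen after their values were seen. Nlrc5, the activator of MHC class I genes, read 441 and 68.6 in WT-labelled against 195 and 220 in KO-labelled libraries. Irf1, which binds promoters of immunoproteasome genes, read 2008 and 1262 against 3299 and 2921, and Ifng itself was at 15.8 in WT replicate 1 and listed at 0 in the other 3 libraries.

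Leukocyte markers were read beside the immunoproteasome because leukocytes express it. All 14 markers of macrophages and dendritic cells were higher, compared with 26.3% of all tested genes. None of them was at 0 in any library, and their median log2 difference was 2.46. Their summed level was 19888 and 16010 in WT-labelled against 74715 and 69300 in KO-labelled libraries. T and NK cell markers summed to 377 and 298 against 683 and 875. Of 8 tested 2 were higher and 2 lower, where 26.3% of all tested genes were higher and 24.9% lower. Most of the T and NK sum in the KO-labelled libraries was Cd4, at 566 and 703, a gene that mouse macrophages can also express. B and plasma cell markers summed to 127 and 139 against 165 and 174, with 1 of 2 tested higher and 4 too low to test. Neutrophil markers summed to 191 and 162 against 279 and 357, with 1 of 3 tested higher and 3 too low to test. Among them Ly6g was listed at 0 in both WT-labelled libraries. The part of leukocytes in the rise of the immunoproteasome genes was not tested.

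In the alpha ring of the core, all 7 ubiquitously used subunits rose, compared with 26.3% of all tested genes called higher. Psma5 read 1232 and 1198 in WT-labelled against 1976 and 1862 in KO-labelled libraries, which makes it the constitutive subunit with the highest log2 difference, 0.66 (SE 0.089, adjusted p = 0.000991 by limma), a 1.58-fold difference. Psma7 followed with 3960 and 4250 against 6109 and 5295, a log2 difference of 0.47. The others, Psma1, Psma2, Psma3, Psma6 and Psma4, had log2 differences between 0.26 and 0.34, which corresponds to 1.20-fold to 1.27-fold. The lowest, Psma4, read 2592 and 2604 against 3165 and 3061, and its call was held in 9 of 15 alternatives. Psma8, the testis-specific alternative to Psma7, was near the floor of the assay, at 16.7 and 9.94 against 18.2 and 17.0, and was not called.

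In the beta ring 3 of 7 constitutive subunits rose, compared with 26.3% of all tested genes called higher. All 3 are structural subunits without a proteolytic site. Psmb1 read 4312 and 4583 against 6164 and 5580, a log2 difference of 0.40 (SE 0.084, adjusted p = 0.00717 by limma). Psmb4 and Psmb2 had log2 differences of 0.34 and 0.32. Psmb3, the remaining structural subunit, had one of 0.30 and did not pass the threshold (95% interval 0.005 to 0.59, adjusted p = 0.0825). Whether the structural and the catalytic beta subunits differ in their change was not tested.

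The 19S base threads substrates into the core, and 6 of its 9 genes were higher, compared with 26.3% of all tested genes. Psmd4, the ubiquitin receptor Rpn10, read 2865 and 3068 in WT-labelled against 4080 and 3797 in KO-labelled libraries, a log2 difference of 0.41 (SE 0.083, adjusted p = 0.00608 by limma). Psmd2 and Psmd1, the large scaffold subunits, had log2 differences of 0.38 and 0.29. Among the 6 ATPases, Psmc4, Psmc5 and Psmc2 rose by 0.34, 0.32 and 0.24, and Psmc1, Psmc6 and Psmc3 had differences of 0.21, 0.14 and 0.12 that did not pass the threshold. Psmc3, with the lowest difference of the base, read 6254 and 6857 against 7563 and 6740, and its groups overlapped.

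In the 19S lid 5 of 8 genes rose, compared with 26.3% of all tested genes called higher. Psmd7, the structural partner of the deubiquitinase, read 3726 and 3685 in WT-labelled against 5131 and 5059 in KO-labelled libraries. Replicates were within a few percent of each other, and the log2 difference of 0.46 (SE 0.072, adjusted p = 0.002 by limma) was the highest of the regulatory particle. Psmd14, the deubiquitinase itself, read 2159 and 2382 against 3100 and 3061, a log2 difference of 0.44. Psmd8, Psmd6 and Psmd13 had log2 differences of 0.34, 0.29 and 0.25.

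The other 3 lid subunits did not pass the threshold. Psmd3 read 5588 and 6153 in WT-labelled against 5823 and 5484 in KO-labelled libraries, a log2 difference of -0.05 with a 95% interval from -0.25 to 0.14. Psmd12 read 3420 and 3457 against 3345 and 3298, a log2 difference of -0.05 with an interval from -0.22 to 0.13. Both intervals end below the value of Psmd7, although the difference between these subunits was not tested. Psmd11 had a log2 difference of 0.14 and was not called.

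**Figure D4:**
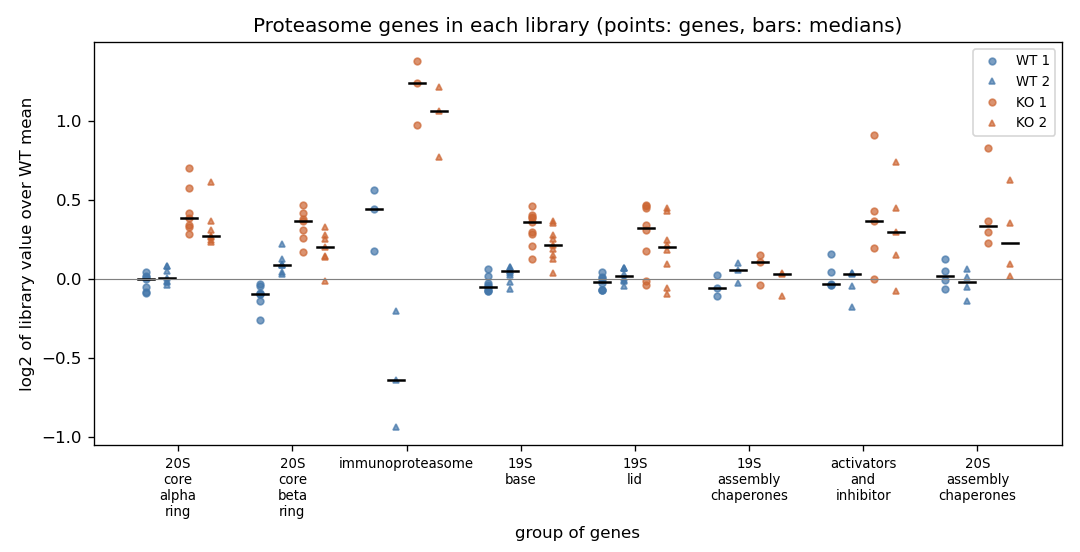
Each point is 1 gene in 1 library, as log2 of its value + 1 over the WT mean + 1, grouped by part of the proteasome (Psma8 left out); circles are replicates 1, triangles replicates 2, blue WT-labelled and orange KO-labelled, and bars are medians. In KO replicate 1 the medians are 0.36 for the base and 0.32 for the lid, in KO replicate 2 they are 0.21 and 0.20, and the immunoproteasome genes of WT replicates 1 and 2 lie far apart.

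Assembly factors were mixed. None of the 3 chaperones of the 19S base, Psmd5, Psmd9 and Psmd10, passed the threshold, compared with 51.2% of all tested genes in either direction. Psmd5 read 2533 and 2442 against 2417 and 2307, a log2 difference of -0.08 (95% interval -0.27 to 0.12), and Psmd9 read 1289 and 1491 against 1547 and 1420, a log2 difference of 0.10 (95% interval -0.16 to 0.35). Among the 4 chaperones of the 20S core, Psmg4 rose, from 203 and 206 in the WT-labelled libraries to 364 and 316 in the KO-labelled ones, a log2 difference of 0.73 (SE 0.16, adjusted p = 0.00915 by limma). Psmg3, its partner in a heterodimer, missed the threshold at a log2 difference of 0.37 (adjusted p = 0.0649), and Psmg1 and Psmg2, which form the other heterodimer, had 0.16 each.

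Of the 4 activator genes 3 rose, compared with 26.3% of all tested genes called higher. Psme2 and Psme1 encode the beta and alpha subunits of PA28, the interferon-inducible cap that is often found on immunoproteasomes, and both rose. Psme2 read 1320 and 1239 in WT-labelled against 2411 and 2138 in KO-labelled libraries, which is 1.78-fold higher (log2 difference 0.83, SE 0.098, adjusted p = 0.000558 by limma). Psme1 read 3400 and 3596 against 4717 and 4293, a log2 difference of 0.36 (adjusted p = 0.0103). The 2 genes are neighbours on chromosome 14, at 55587440 to 55591101 and 55578494 to 55581527 (GRCm38). The near-identical paralog Psme2b was not analysed here, and reads shared with it could move the count of Psme2.

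Psme3, which forms the nuclear PA28 gamma cap, did not pass the threshold. It read 4691 and 4935 against 4810 and 4560, with overlapping groups and a log2 difference of -0.04 (95% interval -0.22 to 0.14). Psme4, the large single-chain activator PA200, read 6303 and 4984 against 7272 and 7710, a log2 difference of 0.42 (SE 0.12, adjusted p = 0.0224 by limma). Without WT replicate 2, the lower of that pair, the log2 difference was 0.25, and the call was lost there and without KO replicate 2 (adjusted p = 0.0762 and 0.0778). Psmf1, the inhibitor PI31, read 1539 and 1610 against 1805 and 1747, and its log2 difference of 0.17 missed the threshold (adjusted p = 0.133).

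The 2 genes named after a proteasome protein that they bind are not subunits. Psme3ip1, whose product binds the PA28 gamma cap, had a log2 difference of 0.24 with an adjusted p of 0.0452 in limma, a call held in 7 of 15 alternatives. Psmc3ip, a recombination factor of meiosis, read 181 and 241 against 217 and 236 and was not called. Leaving both out, 28 of 47 tested genes were higher, compared with 26.3% of all tested genes.

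Levels per kilobase of exon, with exon lengths from GENCODE M21, gave an approximate proportion of the transcripts. The 14 constitutive core genes ranged from 775 normalized counts per kilobase (Psma3) to 4583 (Psmb4) in the WT-labelled libraries, with a median of 2378, and had a median of 2853 in the KO-labelled ones. The 17 genes of the 19S particle ranged from 795 (Psmd11) to 3207 (Psmc3), with medians of 2199 and 2632. The immunoproteasome genes stood at 361 for Psmb8, 116 for Psmb9 and 672 for Psmb10 in WT-labelled libraries, below the lowest gene of both groups. In KO-labelled libraries they stood at 889, 259 and 1234. There the lowest core gene, Psma3, was at 967 and the lowest 19S gene, Psmd11, at 874. On these lengths Psmb10 was above both and Psmb8 above Psmd11. Psmb9 thus remained the least abundant of the 3 immunoproteasome genes in both groups. The ranks depend on the length used, a union over coding transcripts that differs widely within the alpha ring. It was 2846 bases for Psma3, against 1165 for Psma4 and 1148 for Psma6. Whether the ranks hold with other lengths was not tested.

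Other lists of the ubiquitin and proteasome pathway were read in the same fit, against the 26.3% of all genes called higher. Of 17 proteasome partners without a Psm name 5 were higher and none lower, with a median log2 difference of 0.14. Usp14, a deubiquitinase bound to the base, read 2203 and 2123 against 2989 and 3014, a log2 difference of 0.47, and the ubiquitin shuttle gene Ubqln2 had one of 0.29. Of 8 genes of the segregase p97 and its cofactors 2 were higher, Vcp, which encodes p97, and Ubxn1, by 0.23 and 0.26. Of 8 cytosolic peptidases that trim proteasome products 4 were higher, led by Dpp3 and Thop1 with 0.41 and 0.47.

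Among 5 tested genes for ubiquitin and its activating enzymes, Rps27a was higher, by a log2 difference of 0.83. Ubb read 2032 and 4944 against 6032 and 3911 and was not called. The ubiquitin genes encode near-identical repeats, so reads can be split between them and their counts are uncertain.

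Of 9 genes of the transcriptional control of proteasome genes 2 were higher, 2 were lower and 5 did not pass the threshold, shares no larger than the 26.3% higher and 24.9% lower of all tested genes. Nfe2l1, which encodes NRF1, the factor that raises proteasome gene transcription when proteasome activity is short, read 23031 and 24917 in WT-labelled against 18489 and 17820 in KO-labelled libraries, a log2 difference of -0.40 (SE 0.084, adjusted p = 0.00693 by limma). Ngly1, the glycanase that NRF1 needs to become active, was lower too, by a log2 difference of -0.26. Nfe2l3, a related factor, read 322 and 235 against 1735 and 1343, and Maff, which encodes a small Maf protein that pairs with such factors, 174 and 220 against 1167 and 997, with log2 differences of 2.47 and 2.46. The protease gene Ddi2, which cuts NRF1, had a log2 difference of -0.09 and was not called. Only the RNA of these factors was measured, and NRF1 is regulated mainly as a protein.

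**Figure D5:**
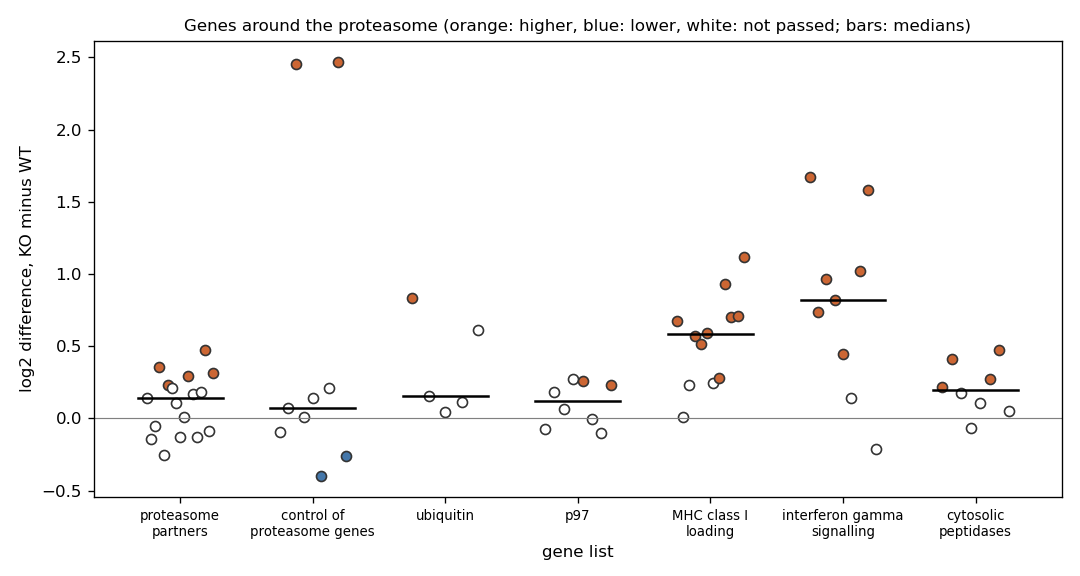
Log2 differences, KO-labelled minus WT-labelled, of the tested genes of 7 lists around the proteasome; orange points passed the threshold as higher, blue as lower, white did not pass, and bars are medians. The MHC class I and interferon gamma lists have the highest medians, 0.58 and 0.82, and the 2 blue points are Nfe2l1 and Ngly1.

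The starts of the proteasome genes were searched for short motifs known from proteasome promoters. RefSeq promoter windows of GRCm38.p6, running from 250 bases before to 50 after a listed start, were matched for 42 of the 50 genes, in 46 windows. Both strands were searched, and no printed match shares letters with a match to another of the motifs. A match is a description of letters, not a binding site.

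The interferon-type motif, a pair of GAAA units with NN between them, was found in 5 of 46 windows (10.9%), against 3.44% of all 32851 windows. None of the 5 belongs to an immunoproteasome gene. Psme1, Psmd4 and Psmg4 among them were called higher, a share close to the 59.2% of all 49 tested proteasome genes. Whether the motif goes with a call was not tested. The stretches are shown because they place this motif in the PA28 alpha gene and in 4 others, with the motif or its reverse complement in capitals, on the strand of the gene.
Psme1 (chr14:55578493-55578522, plus strand): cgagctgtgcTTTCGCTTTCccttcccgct
Psmd4 (chr3:95042675-95042704, minus strand): ataaccaaccTTTCCATTTCtgtggcgcct
Psmg4 (chr13:34162969-34162998, plus strand): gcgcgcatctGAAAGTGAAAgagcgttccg
Psmb3 (chr11:97703261-97703290, plus strand): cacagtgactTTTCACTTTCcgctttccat
Psmd9 (chr5:123228021-123228050, plus strand): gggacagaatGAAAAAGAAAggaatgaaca

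The gamma-activated motif TTCNNNGAA was found in 3 of 46 windows (6.52%), against 8.30% of all windows. One of the 3 is that of Psmb8, the gene with the highest log2 difference, where the motif begins 97 bases before the listed start; the others are Psmd2 and Psmg1. The motif is in capitals, on the strand of the gene.
Psmb8 (chr17:34198088-34198116, plus strand): tcctccgctgTTCCCAGAAgatgcccccc
Psmd2 (chr16:20651646-20651674, plus strand): gcgcgtggccTTCTGGGAAaaggggcggt

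The antioxidant-type motif TGACNNNGC, to which NRF1 and its relatives bind with a small Maf partner, was found in 6 of 46 windows (13.0%), against 12.4% of all windows. The genes were Psmb5, Psmb6, Psmc6, Psmd9, Psmd12 and Psme4. Psme4 alone was called higher, where 59.2% of all 49 tested proteasome genes were, and a link between motif and call was not tested. The stretches of the catalytic subunits Psmb5 and Psmb6 and of Psme4 are given, with the motif or its reverse complement in capitals, on the strand of the gene.
Psmb5 (chr14:54618024-54618052, minus strand): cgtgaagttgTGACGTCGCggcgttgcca
Psmb6 (chr11:70525338-70525366, plus strand): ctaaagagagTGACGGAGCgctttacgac
Psme4 (chr11:30771758-30771786, plus strand): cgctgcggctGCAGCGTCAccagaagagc

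The CCAAT box, CCAAT, was found in 16 of 46 windows (34.8%), against 37.4% of all windows. None of the 4 motifs was shared by the immunoproteasome genes, whose windows held the gamma-activated motif in Psmb8, the CCAAT box in Psmb9 and none of the 4 in Psmb10. No match says only that these letters are not in these windows.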

How the data were processed

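Medulla mRNA was sequenced in 4 libraries, grouped here by their titles. Each deposited value is a signal: a gene's read count that the authors divided by a constant for the library, as the values themselves show, since 100% of them lie within 0.01 of a whole multiple of 1 step per column. The submitters' processing notes name fastp 0.20.1, HISAT2 2.2.1, featureCounts 2.0.1, DESeq2 2.11.40.7, mm10 and GRCm38. Annotation, strand setting and multi-mapping: not given in the sources used here. Overlapping genes may therefore share reads, and 10 of the 50 genes overlap another gene in the table (Psme1, Psme4, Psma3, Psma4, Psmd1 and Psme3ip1 among the called ones).

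Entrez IDs of 25275 of 27179 rows matched RefSeq symbols (GRCm38.p6). The main fit used limma 3.58.1 (R 4.3.3), two-sided and with a trend of variance on level, for log2(value + 1) of the 16253 genes whose mean reached 10; Benjamini-Hochberg adjustment ran over all of them. It had 6.96 degrees of freedom. Its p-values rest on the spread between 2 libraries a group, combined with the variance trend drawn from all tested genes. Alternatives varied the pseudocount, filter, scaling and variance model, ran edgeR 4.0.16 and DESeq2 1.42.0 on recovered reads, added a replicate block and dropped each library in turn; the library left alone in its group then takes its variance from the other group. The main limma fit and the edgeR and DESeq2 fits were tested on simulated data, and the other steps were not. The simulated differences were larger than most proteasome differences here, so the simulation does not bear on calls of that smaller size. Values are given library by library for the immunoproteasome genes and their counterparts, for activators and inhibitor, and for the highest and lowest of each other group; of pathway lists the 2 smallest adjusted p in each direction are named. Further genes were chosen after their values were seen. The members and lists were chosen with earlier results of these data known. Exon lengths are unions over coding transcripts in GENCODE M21. Paaf1 and Psme2b were not analysed here, and Nrdc was read under its synonym Nrd1.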

Additional observations from a re-analysis of the deposited data

How the results depend on the processing

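The count of proteasome genes called higher was 29, and between 22 and 29 with the other pseudocounts, filters and scalings, a robust variance trend, edgeR, DESeq2 and the replicate block. It was 10 with no variance trend, and from 10 to 21 when 1 library was left out; the cause was not tested. The count called lower was 0 throughout. Outside the 29, 1 gene, Psmb3, was called in an alternative, without WT replicate 2. Scalings moved the median of all genes by less than 0.1 on the log2 scale. Differences of 4 genes that were not called changed sign. Without 1 library, Psmb5 ranged from -0.14 to 0.34, Psmd3 from -0.12 to 0.016, Psmd9 from -0.0088 to 0.20 and Psmc3ip from -0.087 to 0.32, and after quantile normalization Psmc3ip was at -0.011. With the replicate number as a replicate block, 22 genes were called higher. The block cannot move the log2 ratio differences of Psmb8 to Psmb5, Psmb9 to Psmb6 and Psmb10 to Psmb7 in this balanced layout (1.30, 1.12 and 0.69), and its exact permutation p was 0.5 for each, the smallest that 2 pairs allow. The labels do not say that a number marks a shared animal or day, and across genes the replicate deviations of the groups had a correlation of -0.056. Without 1 library, the 3 ratio differences ranged from 0.51 to 2.09, from 0.27 to 1.96 and from 0.46 to 0.91.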
